A study of Homo sapiens with 12 samples.

Results

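The inflammasome genes described here are PYDC5 and 9 genes of the pathway around it, namely AIM2, IFI16, NLRP3, NLRP1, NLRC4, NAIP, PYCARD, CASP1 and GSDMD. They were found by gene symbol, and all 10 are among the 20003 genes of the deposited tables. PYDC5 was chosen by its change with OGP46 in NB4 cells in an earlier look at these data. The other 9 genes were chosen by their roles, but with earlier results of these data known. The values of PYDC5 in NB4 cells are therefore given as a description, with no test.

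The samples come from NB4, an acute promyelocytic leukemia cell line with the PML-RARα fusion, and Kasumi-1, an acute myeloid leukemia cell line with t(8;21) and the AML1-ETO fusion. Each line had 3 control samples that received the solvent DMSO and 3 samples that received 1 μM of the compound OGP46. The labels give 48 h of incubation, whereas a figure legend of the study names a longer time. That makes 12 samples in 4 groups, and each cell type is represented by 1 cultured line. The legend of the study's sequencing figure speaks of 3 independent experiments, but nothing in the labels says that the samples numbered 1 to 3 were separate cultures. The p-values therefore measure only the spread between these samples, which may be technical. Poly(A) mRNA was sequenced, and expression is given in FPKM, fragments scaled by gene length and by the total of fragments, so levels can be compared roughly between genes. Comparisons between samples also depend on the scaling, so other scalings were tried. The sequencing depth is unknown, and no interval for counting error is given.

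An inflammasome is a protein platform that starts an inflammatory form of cell death. A sensor such as NLRP3, NLRC4, NLRP1 or AIM2 detects a danger signal, most sensors recruit the adaptor ASC, encoded by PYCARD, and ASC gathers caspase-1, encoded by CASP1. Caspase-1 cuts gasdermin D, encoded by GSDMD, which forms pores in the plasma membrane, and matures the cytokines IL-1β and IL-18. PYDC5, also called POP3, is a small protein made of a pyrin domain alone, and it restrains the DNA sensors AIM2 and IFI16. Myeloid cells, above all monocytes and macrophages, are the cells best known for this pathway.

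Marker genes of the lines were checked first. RUNX1T1, the ETO part of the Kasumi-1 fusion, lay between 8.17 and 9.66 FPKM in the 6 Kasumi-1 samples and at 0.0762 FPKM or less in the 6 NB4 samples. MPO, a granule enzyme of promyelocytes, was at 1510 FPKM or more in every sample. ELANE, another granule gene, reached only 14.5 FPKM in NB4 cells against at least 1035 FPKM in Kasumi-1 cells. The 6 promyelocyte markers chosen for NB4 summed to 2612 to 3954 FPKM in NB4 controls and 9621 to 11926 FPKM in Kasumi-1 controls. They therefore did not mark NB4 by a higher level. Of 6 monocyte and macrophage markers, FCGR3A and MRC1 were listed at 0 in all NB4 samples and VCAN did not exceed 0.0111 FPKM, whereas LYZ was at 262 to 391 FPKM. The NB4 control with number 3 carried signal of Kasumi-1 markers equal to 1.12% of the Kasumi-1 control level, and the other 5 NB4 samples carried 0.264% or less. The FPKM summed to between 248207 and 310262 per sample, and 9339 to 9746 genes reached 1 FPKM.

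PYDC5 lies on chromosome 1 at chr1:158999971-159002751 on the minus strand (GRCh38, RefSeq). IFI16 lies at chr1:158999976-159055151 on the plus strand, so 2776 of the 2781 bases of PYDC5 are inside the IFI16 span, on the opposite strand. An alternative first exon of IFI16, present in 1 of 14 IFI16 transcripts of GENCODE release 29, runs from 158999968 to 159000395 and covers 425 bases of PYDC5. The rest of PYDC5 faces an IFI16 intron. AIM2 follows at chr1:159055051-159147132 on the minus strand, 52300 bases beyond PYDC5. PYDC5 has no entry in GENCODE release 29, where the other 9 genes are found. The libraries mark strand, but whether the counting used it is not given in the sources used here. Without strand, reads of PYDC5 and IFI16 in the shared bases cannot be told apart, and each PYDC5 value carries this limit.

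**Figure D1:**
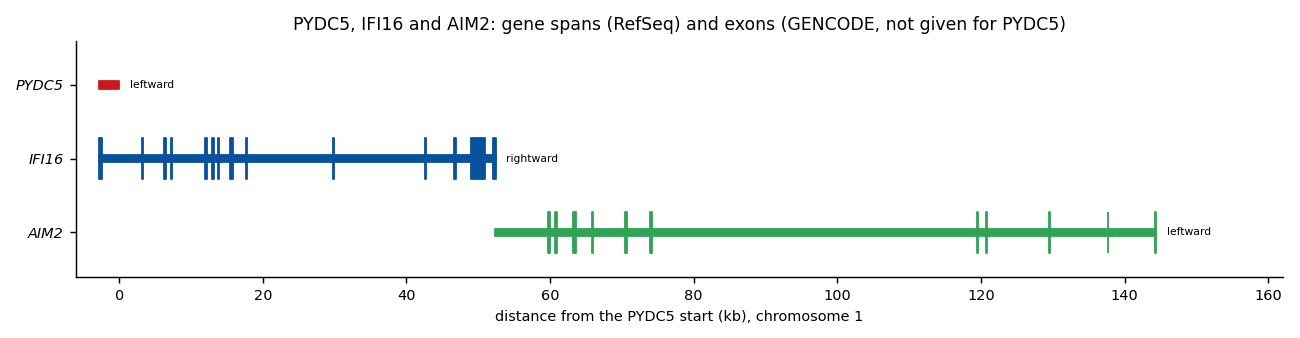
Gene spans (thin bars, RefSeq) and exons (tall bars, GENCODE release 29) of PYDC5, IFI16 and AIM2 on chromosome 1, with the distance from the PYDC5 start in kilobases on the x axis and the direction of transcription beside each gene. PYDC5 lies over the left end of IFI16 and is read leftward, against IFI16, while the AIM2 span shares its last 101 bases with the end of the IFI16 span.

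The other genes lie apart from this locus. NLRP3 is at chr1:247416077-247448817, NLRC4 at chr2:32224449-32265743, NAIP at chr5:70968166-71025339, CASP1 at chr11:105025443-105036686, PYCARD at chr16:31201486-31202760 and NLRP1 at chr17:5501396-5584509. The exons of PYCARD share 991 bases with the antisense gene PYCARD-AS1. NAIP has near-identical copies nearby and CASP1 resembles its neighbour CARD16, so their reads could be split between copies.

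The sequences before the starts of PYDC5, IFI16 and NLRC4 are shown because PYDC5 and IFI16 share a locus and IFI16 and NLRC4 are the members that passed a test with OGP46. Each is 250 bases long, 5′ to 3′ on the gene's strand, from RefSeq on GRCh38.p14, and 6 of the 10 members had an entry in that table. AIM2, NLRP3 and PYCARD also had one, and NLRP1, NAIP, CASP1 and GSDMD did not. Capitals mark matches to 4 motifs on either strand. These are GAAANNGAA and GAAANGAAA, cores of interferon response elements, TTCNNNGAA, the element bound by STAT factors, and GAGGAA, the core bound by PU.1. The second of them was added after the sequences were seen. The windows are chr1:159002752-159003001, minus strand, for PYDC5, chr1:159008741-159008990 and chr1:159009657-159009906, plus strand, for IFI16 with starts A and B, and chr2:32264887-32265136, minus strand, for the innermost of 3 NLRC4 starts.
PYDC5: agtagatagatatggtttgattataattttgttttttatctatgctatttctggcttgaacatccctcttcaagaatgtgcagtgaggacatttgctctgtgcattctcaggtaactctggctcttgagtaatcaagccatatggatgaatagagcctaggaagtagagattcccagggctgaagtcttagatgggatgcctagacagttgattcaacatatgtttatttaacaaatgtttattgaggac
IFI16 start A: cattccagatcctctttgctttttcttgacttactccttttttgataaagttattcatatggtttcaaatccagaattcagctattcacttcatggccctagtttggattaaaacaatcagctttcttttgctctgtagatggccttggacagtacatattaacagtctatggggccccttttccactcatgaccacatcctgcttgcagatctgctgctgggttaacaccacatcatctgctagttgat
IFI16 start B: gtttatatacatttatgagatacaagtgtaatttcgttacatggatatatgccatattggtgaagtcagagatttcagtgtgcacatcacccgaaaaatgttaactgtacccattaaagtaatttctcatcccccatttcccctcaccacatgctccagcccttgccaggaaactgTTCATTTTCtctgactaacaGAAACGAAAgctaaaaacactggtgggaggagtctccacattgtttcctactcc
NLRC4: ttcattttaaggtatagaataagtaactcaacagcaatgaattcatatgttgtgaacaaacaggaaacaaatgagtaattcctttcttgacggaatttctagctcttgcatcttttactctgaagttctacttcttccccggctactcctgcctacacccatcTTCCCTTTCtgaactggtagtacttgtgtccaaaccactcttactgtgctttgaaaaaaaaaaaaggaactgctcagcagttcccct

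The PYDC5 window, which lies in an IFI16 intron, held none of the 4 motifs, and neither did IFI16 start A. IFI16 start B held 1 match to GAAANNGAA, read on the opposite strand, and 1 match to GAAANGAAA. The NLRC4 window shown held 1 match to GAAANNGAA, also on the opposite strand, and the AIM2 window held 1 as well. The windows of NLRP3 and PYCARD each held 1 match to GAGGAA, and the windows of the outer NLRC4 starts, which overlap, shared another. Over the 35116 windows of the table, 6.88% held GAAANNGAA, 2.69% held GAAANGAAA, 6.57% held TTCNNNGAA and 23.6% held GAGGAA. These matches are descriptions of letters and not of bound sites.

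The cell lines were compared first without the compound, to show which inflammasome parts each line transcribes. Several members of the pathway differed in level between NB4 and Kasumi-1 cells. The adaptor PYCARD, caspase-1 and the sensors NLRP3 and NLRP1 were higher in NB4 cells, and the DNA sensor IFI16 and the pore former GSDMD were higher in Kasumi-1 cells. Of the 9 members other than PYDC5, 8 had a mean of at least 0.1 FPKM and were tested. Of these, 4 were called higher in NB4 cells and 2 lower, against 22.7% of all 12302 genes called higher and 29.7% called lower. The mean was taken over both control groups. NLRP1, at a mean of 0.0838 FPKM in the Kasumi-1 controls, was therefore tested only through NB4. NAIP, at a mean of 0.0819 FPKM in the NB4 controls, was tested only through Kasumi-1. A gene was called at an adjusted p below 0.05 in limma and a log2 difference of at least 0.58 in size. The median log2 difference was 0.79 for the 8 members and -0.10 for all genes. Scaling changes the split over all genes, from 2790 higher and 3659 lower to 3595 and 2994 on the TPM scale, but none of the 6 calls among the members changed direction under any scaling.

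NLRP3, the sensor of potassium loss and membrane damage, was at 7.002, 7.27 and 7.38 FPKM in the NB4 controls and at 0.827, 0.795 and 1.24 FPKM in the Kasumi-1 controls. The groups did not overlap, and the ratio of the means was 7.56. The log2 difference was 2.82 ± 0.16 (SE, n = 3 per group, limma, adjusted p = 5.89e-07). CASP1 showed the largest difference of the members tested, with 5.60, 4.87 and 4.11 FPKM in the NB4 controls against 0.435, 0.497 and 0.363 FPKM in the Kasumi-1 controls. This is an 11.3-fold ratio of the means, and a log2 difference of 3.22 ± 0.16 (SE, n = 3 per group, limma, adjusted p = 2.65e-07).

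PYCARD had the highest level of the members in NB4 cells, at 59.4, 67.8 and 67.3 FPKM in the controls, and was at 18.8, 23.2 and 19.4 FPKM in the Kasumi-1 controls. Its log2 difference was 1.66 ± 0.10 (SE, n = 3 per group, limma, adjusted p = 6.48e-07), a 3.17-fold ratio of the means. NLRP1, a sensor held in check by the peptidases DPP8 and DPP9, was low in both lines, at 0.520, 0.467 and 0.498 FPKM in the NB4 controls and 0.0924, 0.0433 and 0.116 FPKM in the Kasumi-1 controls. The groups were apart, with a log2 difference of 1.71 ± 0.21 (SE, n = 3 per group, limma, adjusted p = 6.63e-05), but with a pseudocount of 1 instead of 0.1 the difference shrank to 0.46 and was no longer called.

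IFI16, a PYHIN-family DNA sensor, showed the opposite order. It was at 7.89, 4.02 and 5.58 FPKM in the NB4 controls and at 20.8, 20.7 and 19.9 FPKM in the Kasumi-1 controls, a 3.51-fold ratio of the means in favour of Kasumi-1. Its log2 difference was -1.85 ± 0.20 (SE, n = 3 per group, limma, adjusted p = 3.29e-05). GSDMD was at 2.94, 3.31 and 4.26 FPKM in the NB4 controls and at 13.1, 15.1 and 13.5 FPKM in the Kasumi-1 controls. The log2 difference was -1.97 ± 0.14 (SE, n = 3 per group, limma, adjusted p = 1.79e-06), and again every Kasumi-1 control lay above every NB4 control.

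The sensors of bacterial flagellin and secretion systems were not called between the lines. NLRC4 was at 1.13, 0.553 and 0.563 FPKM in the NB4 controls and 0.616, 0.759 and 0.935 FPKM in the Kasumi-1 controls, with a log2 difference of -0.08 (95% interval -0.69 to 0.52) whose sign turned under TPM scaling. NAIP, the partner that binds the ligand for NLRC4, did not exceed 0.184 FPKM in any sample, and its log2 difference was -0.28 (95% interval -0.89 to 0.34). AIM2 was at 0.108, 0.0294 and 0.0529 FPKM in the NB4 controls and was listed at 0 in all 6 Kasumi-1 samples. AIM2 fell below the filter and was not tested. PYDC5, given without a test, was listed at 0 in NB4 controls 1 and 3 and at 0.289 FPKM in NB4 control 2, and was at 0.690, 0.495 and 0.238 FPKM in the Kasumi-1 controls, so the groups overlapped.

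**Figure D2:**
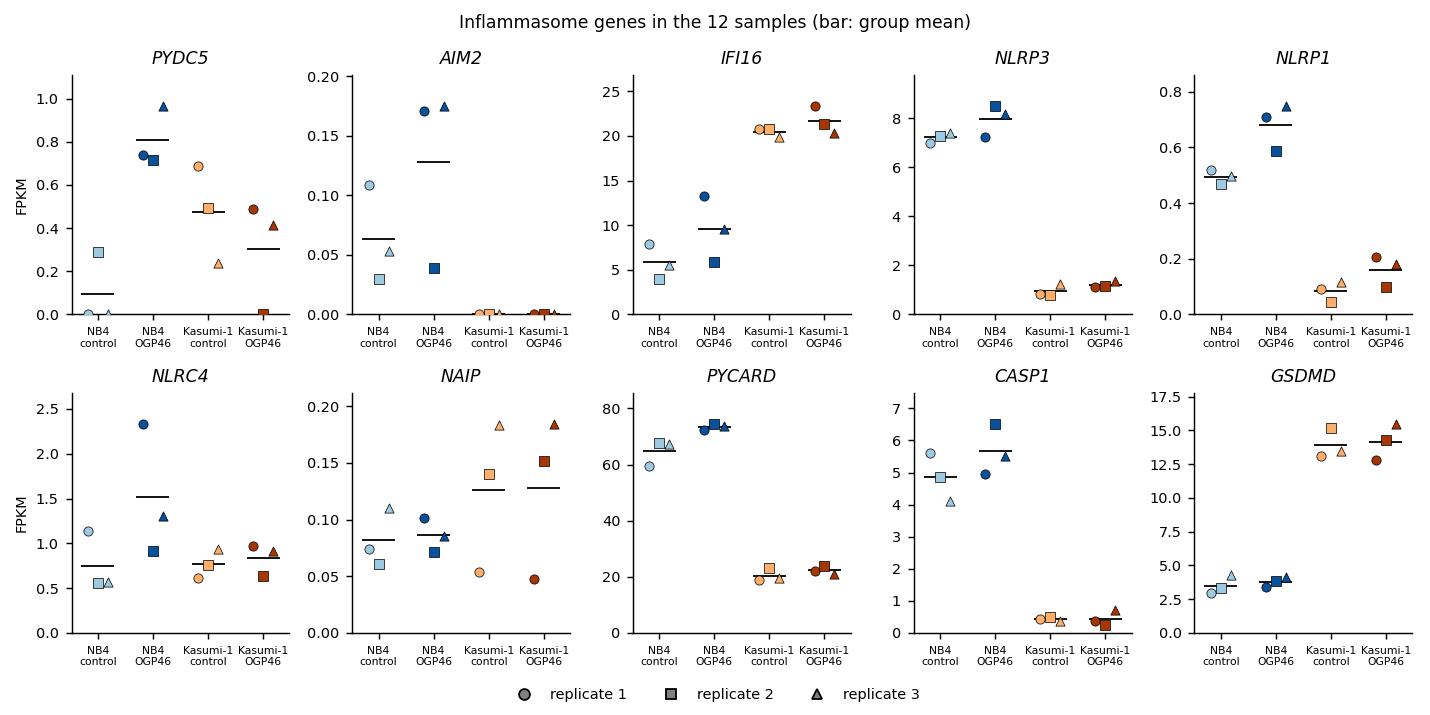
FPKM (y axis, linear from 0, a scale of its own in each panel) of the 10 inflammasome genes in each of the 12 samples, with the 4 groups on the x axis, symbols for the replicate numbers and a bar at each group mean. NLRP3, NLRP1, PYCARD and CASP1 lie higher in every NB4 sample than in any Kasumi-1 sample, IFI16 and GSDMD lie higher in every Kasumi-1 sample, and AIM2 is at 0 in all Kasumi-1 samples.

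The order of the levels within each line also differed. In the NB4 controls, PYCARD at 64.8 ± 4.69 FPKM (SD, n = 3) was far above NLRP3 at 7.22 ± 0.195 FPKM. IFI16 at 5.83 ± 1.95 FPKM overlapped NLRP3 and CASP1, the latter at 4.86 ± 0.743 FPKM, and CASP1 overlapped GSDMD at 3.51 ± 0.683 FPKM. Below them came NLRC4 at 0.749 ± 0.332 FPKM and NLRP1 at 0.495 ± 0.0264 FPKM. In the Kasumi-1 controls, IFI16 at 20.5 ± 0.48 FPKM and PYCARD at 20.5 ± 2.39 FPKM overlapped at the top. GSDMD followed at 13.9 ± 1.09 FPKM, and no other member exceeded 1.24 FPKM.

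The wider pathway was read from a list of 46 further genes, of which 30 could be tested between the lines. Of these, 13 were higher in NB4 cells and 3 lower, beside 22.7% and 29.7% of all genes. The median log2 difference was 0.36 against -0.10 over all genes. The minimum of 0.1 FPKM applies to the mean over both control groups. CARD16, GBP5, GSDME, IL1RN, NLRP12 and NOD2 averaged less than that in the Kasumi-1 controls and were tested only through NB4. IL18, called lower, was tested only through Kasumi-1. Both counts therefore depend in part on this minimum. IL18, the caspase-1 substrate, was at 0.0447 ± 0.0436 FPKM (SD, n = 3) in the NB4 controls and 7.95 ± 0.851 FPKM in the Kasumi-1 controls, with a log2 difference of -5.84 (limma, adjusted p = 8.48e-08). IL1RN, which blocks the IL-1 receptor, was at 2.47 ± 0.348 FPKM against 0.0458 ± 0.0663 FPKM, with a log2 difference of 4.22 (limma, adjusted p = 1.83e-06). IL18 and IL1RN each had a group mean below the pseudocount of 0.1, so the sizes of these log2 differences depend on it. IL1B was at 1.17 ± 0.850 FPKM and 0.925 ± 0.283 FPKM and was not called.

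Inhibitors and partners of the core members also differed. SERPINB1, a protease inhibitor that binds caspase-1, was 18.1 times as high in Kasumi-1 controls, at 237 ± 11.3 FPKM against 13.1 ± 4.11 FPKM (SD, n = 3 per group). PSTPIP1, which binds pyrin, was at 8.99 ± 1.10 FPKM in NB4 controls and 0.438 ± 0.114 FPKM in Kasumi-1 controls. CARD8, a sensor related to NLRP1, was at 15.9 ± 2.18 and 8.05 ± 0.371 FPKM. CARD16, a caspase-1 regulator, CASP8, GBP2, GBP5, GSDME, NINJ1, NLRP12, NOD2 and PANX1 were higher in NB4 cells too, and IL18BP was lower, a call lost under quantile normalization. MNDA, the PYHIN gene on the far side of PYHIN1 from PYDC5, was at 75.7 ± 1.70 FPKM in NB4 controls and 7.20 ± 2.10 FPKM in Kasumi-1 controls, with a log2 difference of 3.41 (limma, adjusted p = 2.48e-07). PYHIN1 itself did not exceed 0.0726 FPKM in any sample.

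**Figure D3:**
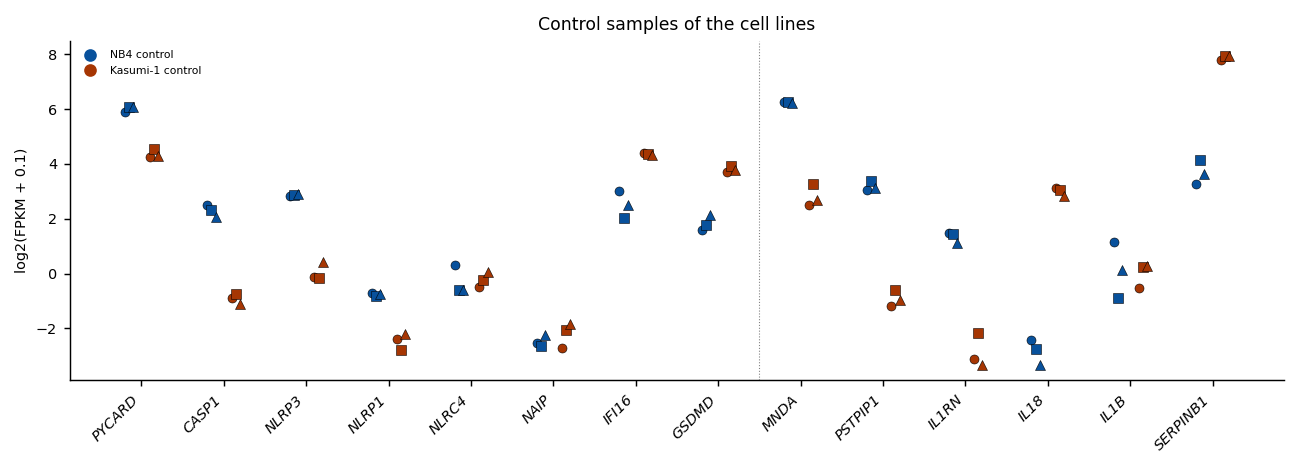
log2(FPKM + 0.1) on the y axis for 8 members (left of the dotted line) and 6 further pathway genes (right) in the 3 NB4 controls and the 3 Kasumi-1 controls, with symbols for the replicate numbers. PYCARD, CASP1, NLRP3, NLRP1, MNDA, PSTPIP1 and IL1RN are higher in NB4 cells, IFI16, GSDMD, IL18 and SERPINB1 are higher in Kasumi-1 cells, and NLRC4, NAIP and IL1B overlap.

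OGP46 was then compared with control within NB4 cells, to show whether the pathway's genes changed with the compound. No member passed the test when the samples were treated as unpaired, and IFI16 and NLRC4 rose when same-numbered samples were paired. Among the 9 members other than PYDC5, 7 were tested, and none was called in limma without pairing, against 1.56% of all 11750 genes. At an unadjusted p below 0.05 there were 2, NLRC4 and PYCARD, against 29.1% of all genes. The 1.56% itself rests on single samples: leaving out any sample other than OGP46 sample 2 left at most 1 gene called in each direction, and without that sample there were 368 higher and 28 lower. With the replicate number as a block, which compares each OGP46 sample with the control of the same number, 2 of the 7 were called higher and none lower, against 5.06% of all genes called higher. The median log2 fold change of the 7 was 0.22 and that of all genes was 0.18, so a typical gene also lay slightly higher with OGP46 on the FPKM scale. Median centring moved the all-gene median to -0.04 and the blocked calls over all genes from 595 higher and 135 lower to 188 and 203.

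NLRC4 was at 1.13, 0.553 and 0.563 FPKM in the NB4 controls and 2.33, 0.912 and 1.30 FPKM with OGP46. The groups overlapped because control 1 exceeded OGP46 sample 2, but each OGP46 sample exceeded the control of its number, by 2.06, 1.65 and 2.31 times. The log2 fold change was 0.90 with an SE of 0.36 unpaired (limma, adjusted p = 0.145, n = 3 per group) and an SE of 0.15 with the block (limma, adjusted p = 0.00231). The blocked call was made under median centring too, at 0.68 (limma, adjusted p = 0.0228).

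IFI16 was at 7.89, 4.02 and 5.58 FPKM in the NB4 controls and 13.3, 5.82 and 9.59 FPKM with OGP46. The same order of samples was seen in both groups, with number 1 highest and number 2 lowest, and the ratios within numbers were 1.69, 1.45 and 1.72. The log2 fold change was 0.68 with an SE of 0.32 unpaired (limma, adjusted p = 0.191, n = 3 per group) and an SE of 0.10 with the block (limma, adjusted p = 0.000872). With the block and median centring it was 0.46 at an adjusted p of 0.0147 in limma, which is under the minimum size of 0.58, and it was not called.

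**Figure D4:**
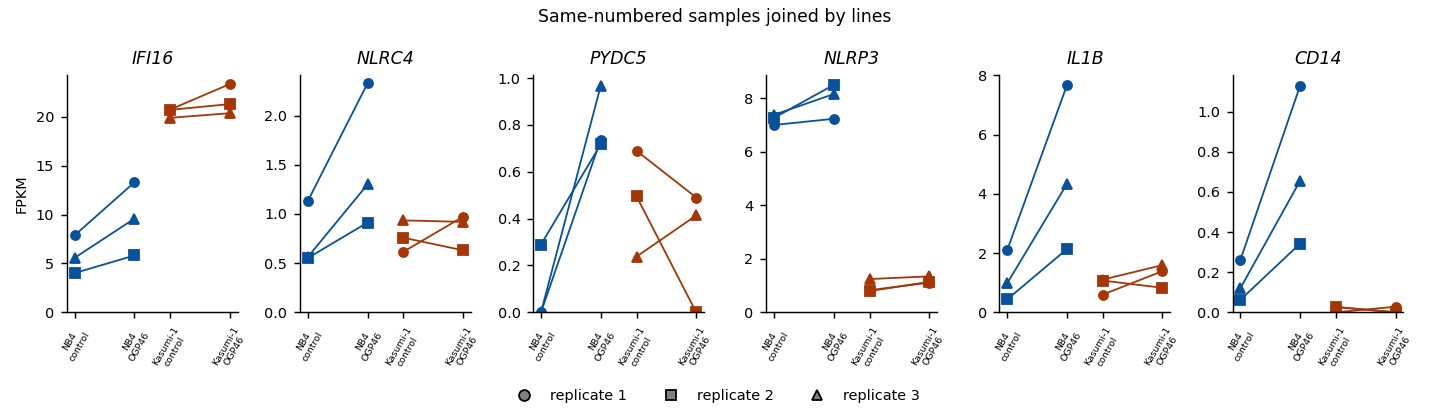
FPKM (y axis, linear from 0) of IFI16, NLRC4, PYDC5, NLRP3, IL1B and CD14 in control and OGP46 samples of NB4 (blue) and Kasumi-1 (brown), with lines joining samples of the same replicate number. In NB4 cells each line for IFI16, NLRC4, IL1B and CD14 goes up while the samples of one group lie far apart, and in Kasumi-1 cells the IFI16 lines are nearly flat.

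Markers of other myeloid stages varied in the same samples. CD14, the lipopolysaccharide co-receptor of monocytes, was at 0.260, 0.0622 and 0.120 FPKM in the NB4 controls and 1.13, 0.342 and 0.655 FPKM with OGP46. CSF1R, the receptor for macrophage colony-stimulating factor, was at 2.44, 1.37 and 1.81 FPKM and then 4.44, 1.67 and 3.03 FPKM. Both had the order of samples seen for IFI16, number 1 highest and number 2 lowest. The summed level of the 6 monocyte and macrophage markers, nearly all of it LYZ, was 272 to 394 FPKM in the controls and 264 to 371 FPKM with OGP46, and FCGR3A and MRC1 were at 0. The promyelocyte granule genes MPO, ELANE, PRTN3, AZU1 and CTSG were lower with OGP46 in 3 of 3 pairs in NB4 and also in Kasumi-1 cells. Over all genes, 743 of 11750 in NB4 and 1631 of 11835 in Kasumi-1 cells were lower in every pair. In NB4 cells the ratio of the means was 0.117 for ELANE and lay between 0.417 and 0.723 for the others. In Kasumi-1 cells the ratios lay between 0.695 and 0.880. CD33, also listed as a promyelocyte marker, was higher in 3 of 3 pairs in each line, with ratios of 1.23 in NB4 and 1.29 in Kasumi-1. In NB4 cells ELANE was at 0.504, 3.30 and 14.5 FPKM in controls 1 to 3 and at most 1.39 FPKM with OGP46. This is the order of their Kasumi-1 marker signal of 0.0309%, 0.264% and 1.12%, and ELANE averaged 1505 FPKM in the Kasumi-1 controls. The part of this signal in the NB4 ratio of ELANE was not tested. CD3D, of the T cell markers, was at 13.5 to 20.4 FPKM in the NB4 controls and 22.5 to 34.6 FPKM with OGP46, while CD3E did not exceed 0.0608 FPKM and CD2 was listed at 0. In these bulk samples, more cells of a type and more RNA per cell cannot be told apart, and the part of these markers in the IFI16 and NLRC4 values was not tested.

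Changes of the other members were not called. PYCARD was at 59.4, 67.8 and 67.3 FPKM in NB4 controls and 72.4, 74.3 and 73.6 FPKM with OGP46. All OGP46 samples lay above all controls, but the log2 fold change was only 0.18 ± 0.08 (SE, n = 3 per group, limma, adjusted p = 0.161), equal to that of a typical gene. NLRP1 was at 0.709, 0.585 and 0.749 FPKM with OGP46, also above every control, with a log2 fold change of 0.39 ± 0.17 (SE, n = 3 per group, limma, adjusted p = 0.173). These were the 2 of 7 members whose groups did not overlap, against 32.7% of all genes for which every OGP46 sample lay above every control.

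NLRP3 was at 7.23, 8.50 and 8.16 FPKM with OGP46, and its log2 fold change of 0.14 had a 95% interval from -0.08 to 0.35. CASP1 was at 4.97, 6.50 and 5.53 FPKM, with 0.22 (95% interval -0.11 to 0.55). GSDMD was at 3.44, 3.83 and 4.15 FPKM, with 0.13 (95% interval -0.22 to 0.47). The sensor, the protease and the pore former of the NLRP3 inflammasome thus had intervals that span 0, and under median centring the 3 log2 fold changes turned negative, as did that of PYCARD. Of the 7 members tested, 5 were higher in every same-numbered pair, against 52.9% of all genes.

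AIM2 and NAIP fell below the filter in NB4 cells. AIM2 was at 0.170, 0.0387 and 0.175 FPKM with OGP46, each above the control of its number, and OGP46 sample 2 lay below controls 1 and 3. NAIP was at 0.0742, 0.0611 and 0.110 FPKM in the controls and 0.101, 0.0711 and 0.0857 FPKM with OGP46, so the groups overlapped.

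PYDC5 was at 0.737, 0.717 and 0.967 FPKM with OGP46 in NB4 cells, and every OGP46 sample lay above every control, of which 2 were listed at 0. No fold is given against the samples at 0, and in the pair numbered 2 the ratio was 2.48. On the log2(FPKM + 0.1) scale the difference was 2.52, which depends on the pseudocount and ran from 0.73 with a pseudocount of 1 to 4.70 with 0.01. PYDC5 was selected on this contrast, so the separation is how it came to be described. IFI16, which covers the PYDC5 locus on the other strand, was 8.12 to 18.1 times as high as PYDC5 in the 4 NB4 samples with a PYDC5 value above 0 and 30.1 to 83.7 times as high in the 5 such Kasumi-1 samples.

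Among the 46 further pathway genes, 29 were tested in NB4 cells. None was called without the block and 9 had an unadjusted p below 0.05 in limma, beside 29.1% of all genes, and the median log2 fold change was 0.32 against 0.18 for all genes. With the block, 4 were called higher, again beside 5.06% of all genes. IL1B, the cytokine that caspase-1 matures, rose most, from 2.10, 0.436 and 0.984 FPKM to 7.67, 2.14 and 4.33 FPKM, with a log2 fold change of 1.97 ± 0.12 (SE, n = 3 per group, limma with the block, adjusted p = 3.27e-06). NOD2, a sensor of bacterial cell walls, rose by 0.91 on the log2 scale, P2RX7, the ATP-gated channel that triggers NLRP3, by 0.82 and NLRP12 by 0.73. Under the block with median centring, IL1B, NOD2 and P2RX7 were still called and NLRP12 was not. NOD2 and P2RX7 had the same order of control samples as IFI16, with 0.252 and 0.530 FPKM in control 2 and 2.69 and 3.40 FPKM in control 1.

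OGP46 in Kasumi-1 cells gave no call among the members. Of the 10 members, PYDC5 included, 9 were tested and none was called in limma without the block, against 0.0338% of all 11835 genes, and none had an unadjusted p below 0.05. With the block none was called either, against 0.617% of all genes, and 1 member, NLRP3, had an unadjusted p below 0.05, beside 22.9% of all genes. The median log2 fold change of the 9 was 0.08 and that of all genes 0.05. No member had all OGP46 samples above all controls, against 17.4% of all genes.

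PYDC5 was at 0.690, 0.495 and 0.238 FPKM in the Kasumi-1 controls and 0.490, 0 and 0.413 FPKM with OGP46. The groups overlapped, with OGP46 below control for numbers 1 and 2 and above it for number 3. The log2 fold change was -0.80 (95% interval -2.15 to 0.55, limma, adjusted p = 0.542, n = 3 per group). It rested on OGP46 sample 2, without which it was 0.02. With the block and without pair 3, PYDC5 was called lower in Kasumi-1 cells.

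IFI16 was at 23.4, 21.3 and 20.4 FPKM with OGP46 in Kasumi-1 cells, and its log2 fold change of 0.08 had a 95% interval from -0.07 to 0.23. NLRC4 was at 0.972, 0.630 and 0.919 FPKM, with 0.11 (95% interval -0.33 to 0.55). NLRP3 was at 1.11, 1.14 and 1.34 FPKM, with 0.32 (95% interval -0.07 to 0.71), and each OGP46 sample exceeded the control of its number. NLRP1 was at 0.206, 0.0968 and 0.180 FPKM, with 0.50 (95% interval -0.15 to 1.16), likewise higher within each number. The interval of GSDMD ran from -0.17 to 0.22, while those of CASP1, from -0.68 to 0.59, and NAIP, from -0.77 to 0.78, were wide.

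PYCARD was at 22.2, 23.8 and 21.1 FPKM with OGP46 in Kasumi-1 cells and GSDMD at 12.8, 14.3 and 15.4 FPKM. CASP1 was at 0.358, 0.261 and 0.710 FPKM, with OGP46 sample 3 above and samples 1 and 2 below all 3 controls. NAIP was at 0.0539, 0.140 and 0.183 FPKM in the controls and 0.0477, 0.152 and 0.184 FPKM with OGP46, so the samples of 1 group lay further apart than the group means. Of the 46 further pathway genes, 24 were tested in Kasumi-1 cells, with a median log2 fold change of 0.08. None was called without the block, beside 0.0338% of all genes, and 8 had an unadjusted p below 0.05 in limma, beside 15.6% of all genes. With the block 1 was called, beside 0.617% of all genes. This was NINJ1, which ruptures the plasma membrane after gasdermin pores form. It fell from 2.47, 2.98 and 2.65 FPKM to 1.61, 1.43 and 2.23 FPKM (log2 fold change -0.61, limma, adjusted p = 0.0443), and it was called under each scaling with the block.

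**Figure D5:**
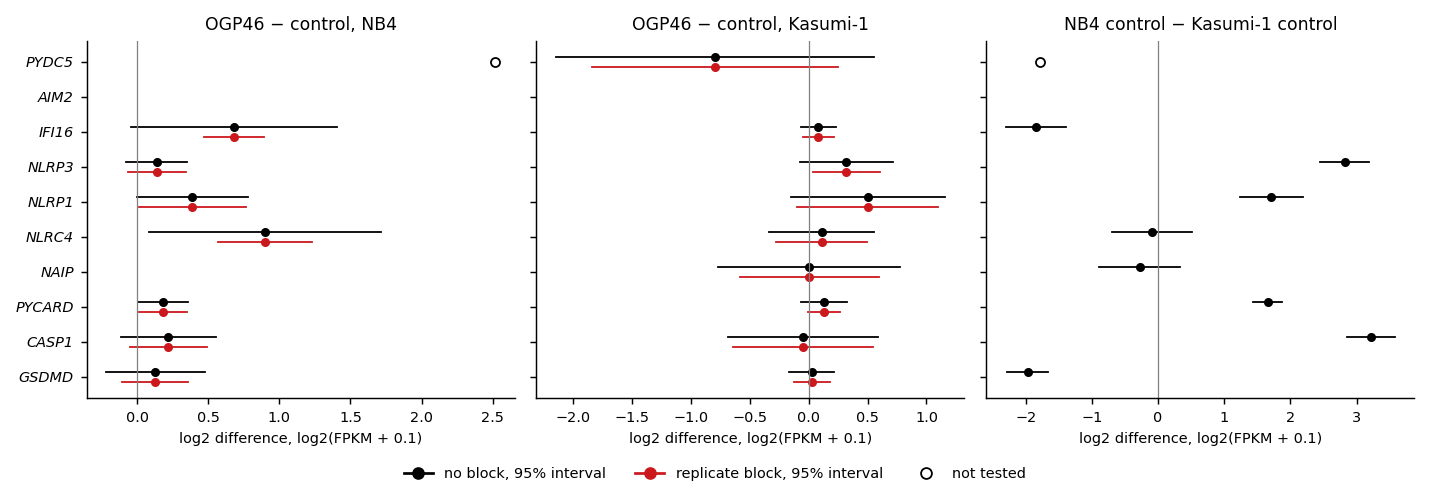
log2 differences on the log2(FPKM + 0.1) scale (x axis) of the inflammasome genes (y axis) for OGP46 against control in NB4 and in Kasumi-1 cells and for the NB4 against the Kasumi-1 controls, with 95% intervals from limma without (black) and with (red) the replicate block, and open circles where PYDC5 was not tested. The block narrows the IFI16 and NLRC4 intervals in NB4 cells away from 0, and AIM2 is not shown because it fell below the filter.

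Whether the OGP46 effect differed between the lines was tested as the NB4 effect minus the Kasumi-1 effect. Of the 9 members other than PYDC5, 8 were tested. None differed in limma without the block, against 0% of all 12309 genes, and none had an unadjusted p below 0.05. With the block, 1 member, IFI16, had a larger effect in NB4 cells, against 1.81% of all genes. The difference for IFI16 was 0.60 on the log2 scale (95% interval 0.37 to 0.83, limma with the block, adjusted p = 0.0241), between 0.68 in NB4 and 0.08 in Kasumi-1 cells. It did not pass with the block and median centring, TPM scaling or quantile normalization, where adjusted p lay between 0.0531 and 0.0893. For NLRC4 the difference was 0.79 (95% interval 0.26 to 1.32, limma with the block, adjusted p = 0.130). Thus the rise of NLRC4 in NB4 cells was not shown to differ from its value in Kasumi-1 cells.

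Of the 46 further pathway genes, 30 were tested for the same difference, and none passed without the block, where 3 had an unadjusted p below 0.05 in limma, beside 11% of all genes. With the block, 3 of the 30, IL1B, P2RX7 and TXNIP, had the larger effect in NB4 cells, beside 1.81% of all genes. TXNIP, a thioredoxin-binding protein that can engage NLRP3, was at 36.8, 20.2 and 32.2 FPKM in NB4 controls and 40.9, 25.4 and 46.6 FPKM with OGP46, and at 43.2, 39.1 and 34.0 FPKM in Kasumi-1 controls and 34.8, 29.7 and 25.0 FPKM with OGP46. It went up within each number in NB4 cells and down within each number in Kasumi-1 cells, and its difference of 0.72 (limma with the block, adjusted p = 0.0165) passed under each scaling. Those of IL1B and P2RX7 did not.

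The genes whose log2 values were most like those of PYDC5 over the 12 samples were MAP4K1 (Pearson r = 0.855), ATP6V1H (0.822), ZRANB3 (0.803), TSEN15 (0.800) and TMEM120A (0.793). IFI16 had r = 0.18 with PYDC5 and AIM2 had r = 0.11. For AIM2, the most like were THBS1 (r = 0.981), SLFN5 (0.979), SGO1 (0.979), TMEM119 (0.976) and MPEG1 (0.972). THBS1 was at 4.26, 0.0928 and 1.96 FPKM in the NB4 controls and 23.1, 0.491 and 9.62 FPKM with OGP46, and did not exceed 0.0291 FPKM in Kasumi-1 cells, so it shared with AIM2 the high NB4 samples of number 1 and the low ones of number 2. These correlations describe 12 samples that fall into 2 cell lines, and they were the highest of 12309 genes. Those with PYDC5 include the NB4 values by which it was chosen, and PYDC5 was listed at 0 in 3 of the 12 samples.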

How the data were processed

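The members and the pathway list were chosen with earlier results of these data known. The authors deposited 1 FPKM value per gene symbol and sample. Per the submitters' processing notes the build is hg38 and the tools are Trimmomatic, HISAT2, Cufflinks and HTSeq, and their versions, the annotation and the use of strand are not given in the sources used here. Of the deposited FPKM values, 632 lie between 0 and 1e-04, so reads may have been shared out by estimate, but how they were assigned is not given. FPKM scales out library totals, so a few abundant genes can shift all others. Of 20030 rows, 27 with symbols turned into dates were left out.

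log2(FPKM + 0.1) was compared with limma 3.58.1 in R 4.3.3 (trended moderation, mean of at least 0.1 FPKM, Benjamini-Hochberg adjustment over all genes, log2 size of at least 0.58 except for the difference between lines). The tests were checked on simulated data with independent noise in each sample and no pairs, so the block was not checked on paired samples. All 10 members are named, and pathway genes where called or above 3 FPKM. The labels number the samples, and deviations of same-numbered samples correlated over genes (r = 0.197 to 0.622 in NB4, 0.157 to 0.395 in Kasumi-1), so the numbers were taken as pairs. Samples of unlike number had r from -0.468 to 0.224 in NB4 and from -0.278 to 0.101 in Kasumi-1. In NB4, control 1 with OGP46 sample 3 had 0.224, above the 0.197 of pair 3, so numbers 1 and 3 were poorly told apart. Over genes of at least 5 FPKM these values were 0.289 and 0.439. The calls of IFI16 and NLRC4 with OGP46 rest on this pairing. With 3 against 3 samples an exact permutation test cannot go below 0.1, so none was used.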

Additional observations from a re-analysis of the deposited data

Results flagged for a closer look

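IFI16 is listed because the test of the difference between the cell lines passed with same-numbered samples as a block. Its log2 change with OGP46 was larger by 0.60 in NB4 than in Kasumi-1 cells (limma, adjusted p = 0.0241), with the OGP46 sample above its control in 3 of 3 pairs in each line. Without the block the same difference had an adjusted p of 0.557, and it did not pass with the block under median centring, TPM scaling or quantile normalization. No member moved in opposite directions in the lines with groups apart. Groups of 3 samples are too small for a test of single outlying samples.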

How the results depend on the processing

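The cause of the shifts below was not tested. Without the block, the count of members called higher with OGP46 in NB4 cells was 0 in all alternatives, but it was 2 with the replicate block and 1 with the replicate block and median centring. With the block, the count was also 1 under TPM scaling and under quantile normalization, where IFI16 fell to 0.56 and 0.48, while leaving out any pair left it at 2. In Kasumi-1 cells the blocked count of members called lower went from 0 to between 0 and 1 when a pair was left out, PYDC5 being called without pair 3. For the difference between lines, the count was 0 unblocked, 1 with the block, and 0 with the block and median centring, TPM scaling or quantile normalization. The pairing changed no other call among the members.

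Signs turned only for changes that were not called. In NB4 cells the log2 fold changes of NLRP3, PYCARD, CASP1 and GSDMD were -0.083, -0.038, -0.0012 and -0.092 under median centring, with or without the replicate block, and those of NLRP3 and GSDMD were -0.071 and -0.085 under quantile normalization. In Kasumi-1 cells GSDMD was at -0.041 under median centring and -0.013 under quantile normalization, NAIP at -0.013 with a pseudocount of 0.01 and -0.064 under median centring, and CASP1 at 0.00028 with a pseudocount of 1. Between the controls, NLRC4 was at 0.094, 0.053 and 0.19 under TPM scaling, median centring and quantile normalization. Leaving out 1 sample gave ranges in NB4 cells, with no call, of 0.40 to 0.99 for IFI16 and 0.55 to 1.20 for NLRC4, which was at 0.50 with a pseudocount of 1. It gave ranges in Kasumi-1 cells of -1.26 to 0.024 for PYDC5, -0.023 to 0.28 for NLRC4 (-0.13 to 0.28 with the block), -0.25 to 0.29 for NAIP, -0.38 to 0.20 for CASP1 and -0.038 to 0.097 for GSDMD, and -0.39 to 0.072 for NLRC4 between the controls.

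Over all genes in NB4 cells, 170 were called higher and 13 lower, 595 and 135 with the block, 409 and 89 in a joint model of the 12 samples, 368 and 28 without OGP46 replicate 2, at most 1 and 1 without any other single sample, and none without the block under median centring, TPM scaling or quantile normalization. Between the controls, 4 members were higher and 2 lower, and the alternatives gave 3 to 5 and 2. The count was 5 with no filter, which added AIM2, and 3 with a pseudocount of 1 or a minimum mean of 1 FPKM, which lost NLRP1. AIM2 was listed at 0 in every Kasumi-1 control and did not exceed 0.108 FPKM in the NB4 controls. Its call without the filter thus rests on values near 0 and on the pseudocount of 0.1, and is not read as a difference. The alternatives that pair TPM scaling, quantile normalization, the subtraction of Kasumi-1 signal or a left-out pair with the block were chosen after seeing the data. Depth is unknown, so values near 0, above all those of PYDC5, AIM2 and NAIP, carry an error that the files do not show.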
